A study of Mus musculus with 29 samples.

Results

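This account covers 10 genes that B cell progenitors use to assemble and test their antigen receptor, measured by RNA sequencing in B cells and tumours of Eμ-myc mice. The genes were chosen by symbol: Rag1, Rag2, Dntt, Vpreb1, Vpreb3, Igll1, Kit, Flt3, Sox4 and Lef1. All 10 were found among the 21819 genes of the B cell files. In this strain a Myc transgene is driven by the enhancer of the immunoglobulin heavy chain gene, which acts in the B lineage from early stages on; all mice here were C57BL/6. Tg_lymphnode (n = 3) is lymph node tumour of transgenic mice, pressed into a cell suspension with no purification and with no age given. Tg_spleen (n = 4) is B cells of transgenic mice of 6 to 8 weeks. WT_spleen (n = 4) is B cells of wild-type mice of the same age. Spleen B cells were enriched on beads against B220, a form of the Ptprc protein that B cells carry from the progenitor stage on and that plasmacytoid dendritic cells also carry. Whether libraries came from separate mice is not said, so p-values measure only the spread between libraries.

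As background, V(D)J recombination joins gene segments into an immunoglobulin gene, and takes place in the bone marrow of adult mice. The RAG1 and RAG2 proteins cut the DNA together, terminal transferase (Dntt) adds bases to the ends, and the end-joining proteins seal them. A pro-B cell that has made a heavy chain displays it with a surrogate light chain built from VpreB and lambda 5 (Igll1), which is the test passed on the way to the pre-B stage. Receptors Kit and Flt3 act in earlier progenitors, and the factors Sox4 and Lef1 act in pro-B cells. Resting B cells of the spleen have shut most of these genes down, although Vpreb3 is kept longer.

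Values are FPKM (fragments per kilobase of transcript, scaled to sequencing depth) as deposited by the authors. The B cell files hold no counts. The spacing of low values put the reads on genes at 8.25 to 15.4 M per library, and made the FPKM of these files 10.2 to 11.4 times larger than FPKM over those reads, so levels compare between genes and libraries of these files only. Levels of Myc were 2123, 2178.8 and 1759.4 FPKM in Tg_lymphnode, 1017.4, 1275.4, 2407.9 and 1524.7 FPKM in Tg_spleen, and 226.6, 273.3, 215 and 190.7 FPKM in WT_spleen. All 7 libraries labelled transgenic therefore lay above the 4 wild-type libraries. The libraries also fall into 2 classes by the RNA of Rpph1, the RNA part of ribonuclease P: above 300000 FPKM in all 3 tumours, Tg_spleen replicates 2 and 3 and WT_spleen replicates 1 and 3, and below it in Tg_spleen replicates 4 and 5 and WT_spleen replicates 4 and 6. No label names this split, so the calls of the 10 genes in spleen, and the counts of the gene lists, are also given within each class.

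One tumour went against its B cell label. Tg_lymphnode replicate 3 had 55.6 FPKM of Cd79a, which codes for a signalling chain of the B cell receptor, against a mean of 1890 FPKM in the other 2 tumours, and 18.8 FPKM of Ebf1, a factor that sets up the B lineage. It had 2654.8 FPKM of Siglech, a gene of plasmacytoid dendritic cells, against 17.4 FPKM in the other tumours, and 1305.2 against 7.8 FPKM of Cox6a2. Of T cell genes, Cd4 was at 9468.2 and Cd8b1 at 7614.6 FPKM, while Cd3e was at 62.8 FPKM. Ptprc alone of the 6 B cell genes looked at was higher in replicate 3, at 2480.3 FPKM against a mean of 1750 FPKM in the other tumours. The other 2 tumours, replicates 1 and 2, had 2112.6 and 1672.7 FPKM of Cd79a, below the 2885.1 to 3764.1 FPKM of WT_spleen. Tests of the 10 genes in tumours against WT_spleen are therefore given with and without replicate 3.

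**Figure D1:**
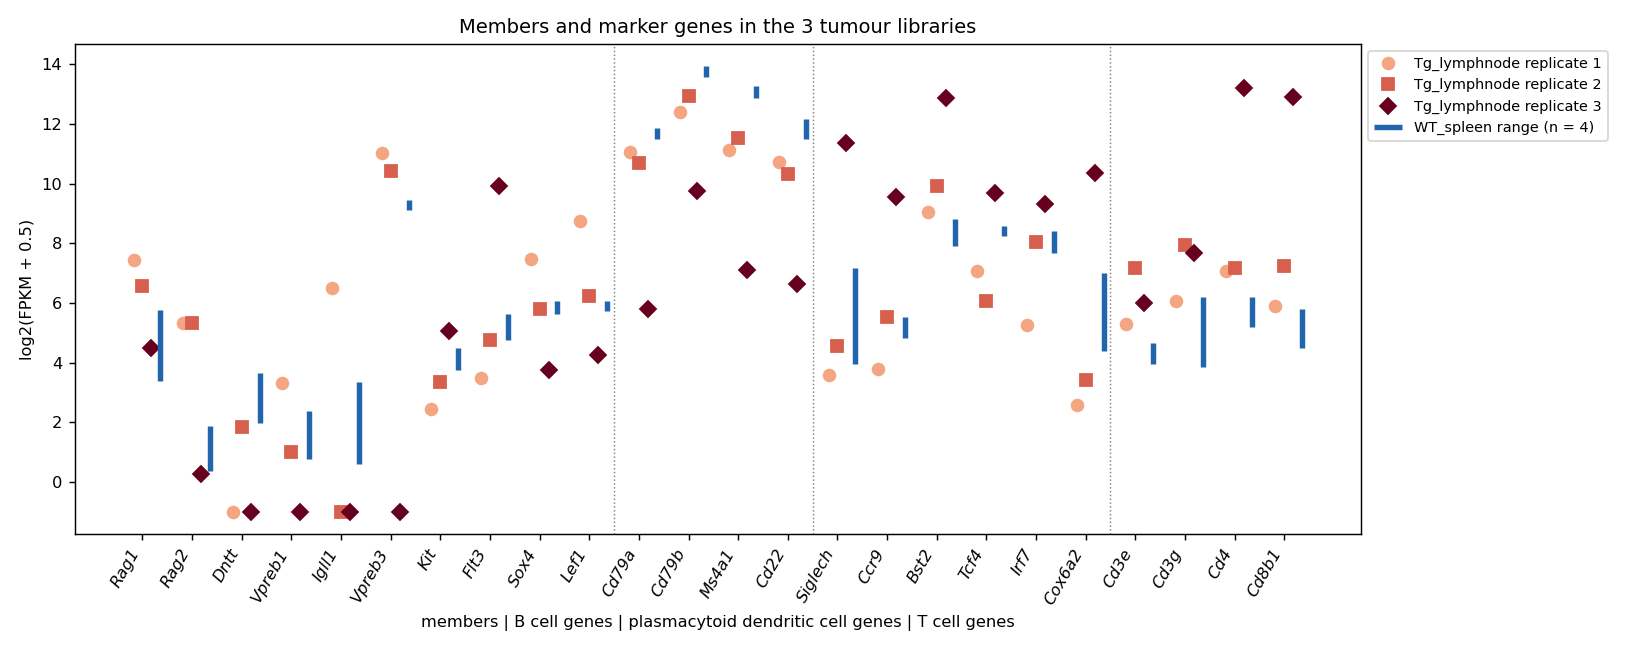
Levels of the 10 genes and of marker genes in the 3 tumour libraries, as log2(FPKM + 0.5) on the vertical axis; symbols are Tg_lymphnode libraries, and blue bars give the range of the 4 WT_spleen libraries. Replicate 3 lies far below the other tumours in Vpreb3, listed at 0, and Cd79a (55.6 FPKM), and far above them in Flt3 (979.5 FPKM) and Siglech (2654.8 FPKM).

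In young transgenic spleen, 6 of the 10 genes passed the test against wild-type spleen: Rag1, Rag2, Sox4 and Vpreb3 were higher, and Kit and Flt3 were lower. Among all 14021 genes tested, 15.7% were called higher and 12.2% lower. The median log2 fold change was 1.37 for the 10 genes and -0.05 for all genes tested. All 10 genes passed the filter on low values. Fewer cells of a type and less RNA per cell cannot be told apart in these bulk samples.

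Rag1 and Rag2, the recombinase genes, changed most. Rag1 stood at 90.8, 293, 441.8 and 299.1 FPKM in Tg_spleen replicates 2, 3, 4 and 5, against 53.5, 37.1, 12.9 and 10 FPKM in WT_spleen replicates 1, 3, 4 and 6. The groups did not overlap, and the lowest transgenic library was replicate 2. The difference was 10.6-fold, or 3.40 ± 0.63 (SE) on the log2 scale, with an adjusted p of 0.0069 by limma. Rag2 stood at 7.5, 30.3, 76.8 and 53.3 FPKM in Tg_spleen, against 3.2, 1.4, 1.8 and 0.8 FPKM in WT_spleen, which are only about 3 to 9 reads per wild-type library. Its groups were again apart, by 3.89 ± 0.65 on the log2 scale with an adjusted p of 0.00428. Of all genes tested, 16.9% lay higher and 14.7% lower with no overlap of these groups. Rag1 exceeded Rag2 in each library, by 5.61 to 12.1 times in Tg_spleen and 7.17 to 26.5 times in WT_spleen.

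The recombinase genes lie tail to tail on chromosome 2, each with its own start. The 250 bases before each start are shown, since these genes moved together; capitals mark CAGGTG, an E-box of the kind that E2A (Tcf3) binds. Sequences are from RefSeq on GRCm38.p6, written 5′ to 3′ on the strand of the gene.
Rag1, chr2:101649533-101649782, minus strand: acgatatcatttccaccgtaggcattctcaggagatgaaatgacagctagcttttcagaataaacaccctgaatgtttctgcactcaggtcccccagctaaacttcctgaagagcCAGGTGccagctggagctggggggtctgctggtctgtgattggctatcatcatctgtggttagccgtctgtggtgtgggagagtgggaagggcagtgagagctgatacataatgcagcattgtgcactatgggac
Rag2, chr2:101624462-101624711, plus strand: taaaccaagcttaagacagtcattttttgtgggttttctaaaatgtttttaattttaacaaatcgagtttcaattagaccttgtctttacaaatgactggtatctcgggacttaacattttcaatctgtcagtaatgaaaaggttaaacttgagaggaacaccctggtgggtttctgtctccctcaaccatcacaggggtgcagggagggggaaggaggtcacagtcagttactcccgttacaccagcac
The Rag1 window holds CAGGTG once, with its first base at -135 from the start, and the Rag2 window holds none.

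Dntt, which codes for terminal transferase, read 1.7, 4.4, 51 and 25.4 FPKM in Tg_spleen and 5.1, 3.4, 5.5 and 12.1 FPKM in WT_spleen. Replicates 4 and 5 of Tg_spleen were above every wild-type library, while replicate 2 was below them all. The log2 difference of 0.78 ± 0.89 did not pass (adjusted p = 0.533). At about 4 to 140 reads in a transgenic library, Dntt was thinly covered.

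The surrogate light chain genes split in the same manner. Vpreb1 read 2.4, 4.1, 39.6 and 16.8 FPKM in Tg_spleen, against 4.7, 3.1, 3.5 and 1.2 FPKM in WT_spleen. Igll1, the lambda 5 gene, read 2.1, 7.2, 75.1 and 35.8 FPKM in Tg_spleen, against 2.8, 9.6, 1 and 2 FPKM in WT_spleen. In both genes Tg_spleen replicates 4 and 5 exceeded all wild-type libraries and replicates 2 and 3 lay among them. Neither gene passed, with log2 differences of 1.55 ± 0.77 (adjusted p = 0.153) and 2.19 ± 1.00 (adjusted p = 0.126). Wild-type levels came to about 1 to 3 reads for Vpreb1 and 1 to 7 for Igll1. Vpreb1 has a near-identical copy, Vpreb2, between which reads cannot be divided with certainty; Vpreb2 was listed at 0, 0, 10.6 and 1.6 FPKM in Tg_spleen and at 0, 2.8, 0 and 0 FPKM in WT_spleen.

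Vpreb3, which codes for a VpreB-like protein that assists in the assembly of the receptor, was the most abundant of the 10 genes in each of the 3 groups. It stood at 648.4, 1087.5, 2265.1 and 2486.7 FPKM in Tg_spleen, against 632.1, 698.4, 557.3 and 599.3 FPKM in WT_spleen. Replicate 2 of Tg_spleen fell inside the wild-type range and the other libraries above it. The rise was 2.28-fold, or 1.19 ± 0.38 on the log2 scale (adjusted p = 0.0414).

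The starts of Vpreb1 and Igll1 are 5270 bases apart on chromosome 16 and point the same way. Their windows are shown with that of Vpreb3, which is on chromosome 10, because all 3 serve the pre-B cell receptor; capitals mark CAGGTG and, in the Igll1 window, also CCCNNGGG, the core of the palindrome that Ebf1 binds.
Vpreb1, chr16:16869256-16869505, minus strand: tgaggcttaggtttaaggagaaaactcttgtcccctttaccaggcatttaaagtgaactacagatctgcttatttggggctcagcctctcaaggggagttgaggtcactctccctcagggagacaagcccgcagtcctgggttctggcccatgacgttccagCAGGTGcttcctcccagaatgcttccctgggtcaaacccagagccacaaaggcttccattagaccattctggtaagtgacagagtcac
Igll1, chr16:16863986-16864235, minus strand: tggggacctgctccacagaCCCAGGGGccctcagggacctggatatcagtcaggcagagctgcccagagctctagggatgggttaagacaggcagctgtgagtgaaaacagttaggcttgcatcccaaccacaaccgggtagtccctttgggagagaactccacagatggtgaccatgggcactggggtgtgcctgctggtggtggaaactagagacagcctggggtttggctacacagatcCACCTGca
Vpreb3, chr10:75948050-75948299, plus strand: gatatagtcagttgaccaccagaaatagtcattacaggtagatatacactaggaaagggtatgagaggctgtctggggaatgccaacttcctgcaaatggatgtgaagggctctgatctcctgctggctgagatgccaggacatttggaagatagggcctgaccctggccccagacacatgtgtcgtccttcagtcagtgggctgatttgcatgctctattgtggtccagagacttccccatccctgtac
CAGGTG occurs once in the Vpreb1 window, at -88 from the start, and once in the Igll1 window, at -8, where it lies on the opposite strand and so is printed as CACCTG, while Vpreb3 holds none. Both strands were searched for CACGTG, the E-box that Myc with Max binds, CAGGTG, and CCCNNGGG in 14 windows, since Kit has 2 starts and Lef1 has 4. CAGGTG was in Rag1, Vpreb1 and Igll1 alone, and in 17.2% of all 32851 promoter windows. CCCNNGGG was in Igll1, at -231 from the start, and in both Kit windows, at -164 and -168, which is the same site seen from 2 close starts, against 11.8% of all windows. CACGTG was in 1 Lef1 window alone, at -79 from that start, against 6.02% of all windows. The motifs do not overlap in these windows, and a match of letters is not a measured binding site.

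The progenitor receptors went the other way. Kit, the receptor for stem cell factor, stood at 6.4, 7.2, 3.5 and 6.3 FPKM in Tg_spleen, against 13.1, 13.1, 14.1 and 22.1 FPKM in WT_spleen. All transgenic libraries lay below all wild-type libraries, and the level was 2.55-fold lower, a log2 difference of -1.35 ± 0.30 (adjusted p = 0.0117). Flt3, the receptor for Flt3 ligand, stood at 25.3, 18.4, 7.9 and 18 FPKM in Tg_spleen, against 26.4, 26.8, 41 and 48.7 FPKM in WT_spleen. Its groups also lay apart, although Tg_spleen replicate 2 was close to the lowest wild-type library. The level was 2.11-fold lower, by -1.08 ± 0.36 on the log2 scale (adjusted p = 0.0476).

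Cells outside the B lineage use both receptors: dendritic cells carry Flt3, and mast cells carry Kit. The counts over all 8 spleen libraries that follow stand beside 15.7% of all genes called higher and 12.2% lower. Of 6 marker genes of conventional dendritic cells, 0 were called higher and 2 lower, with summed levels of 46.4 to 151 FPKM in Tg_spleen and 115 to 282 FPKM in WT_spleen, and none was listed at 0. Of 8 markers of plasmacytoid dendritic cells 4 were lower, with sums of 2920 to 5060 FPKM in Tg_spleen and 5060 to 7670 FPKM in WT_spleen, most of them from Ly6d, which B cells express too. Siglech, the defining one, stood at 7.6, 10, 6 and 15.8 FPKM in Tg_spleen and at 24.7, 15, 99.4 and 143.9 FPKM in WT_spleen. Mast cell and basophil genes were near 0 throughout: their 7 genes summed to 0.9 to 10 FPKM in Tg_spleen and 4.5 to 8 FPKM in WT_spleen, and Mcpt4 was listed at 0 in all 8 spleen libraries. Of 6 NK cell genes 4 were lower, with sums of 51 to 381 FPKM in Tg_spleen and 422 to 760 FPKM in WT_spleen. Of 10 T cell genes 3 were lower, with sums of 111 to 287 FPKM in Tg_spleen and 376 to 627 FPKM in WT_spleen. Within the Rpph1 classes 4 conventional dendritic, 4 plasmacytoid dendritic, 6 NK and 6 T cell genes were lower below 300000 FPKM, against 0, 1, 2 and 1 above it, and none of these 4 lists had a gene called higher. Of all genes, 9.63% were called lower below 300000 FPKM and 3.65% above it. What part these cells had in the lower Kit and Flt3 was not tested. Of the B cell genes, Cd22, Cd79a and Ptprc, the gene of the B220 protein used for enrichment, were lower in Tg_spleen, by -0.99, -0.55 and -0.85 on the log2 scale (adjusted p = 0.0155, 0.028 and 0.0401). Ptprc stood at 4886.9, 3868.9, 1919 and 2962.4 FPKM in Tg_spleen, against 5885.5, 5782.8, 5663.6 and 5952.1 FPKM in WT_spleen. Cd79a stood at 2168.4 to 2465.3 FPKM in Tg_spleen and 2885.1 to 3764.1 FPKM in WT_spleen, and Ms4a1 at 4090.8 to 8752.9 FPKM in Tg_spleen and 7455.3 to 9963.1 FPKM in WT_spleen.

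Sox4, a factor needed for pro-B cells to survive and mature, stood at 66.6, 154.6, 384.9 and 252.8 FPKM in Tg_spleen, against 49.1, 67.1, 50.5 and 48.9 FPKM in WT_spleen. Only Tg_spleen replicate 2 fell within the wild-type range. The rise was 3.31-fold, or 1.73 ± 0.44 on the log2 scale (adjusted p = 0.0200). Lef1, a factor of the Wnt pathway that works in pro-B cells and T cells, read 32.4, 38, 149.3 and 71.4 FPKM in Tg_spleen, against 65.9, 63.2, 57.7 and 53 FPKM in WT_spleen. Here Tg_spleen replicates 2 and 3 were below and replicates 4 and 5 above all wild-type libraries, and the mean log2 difference was 0.01 ± 0.41 (adjusted p = 0.985).

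**Figure D2:**
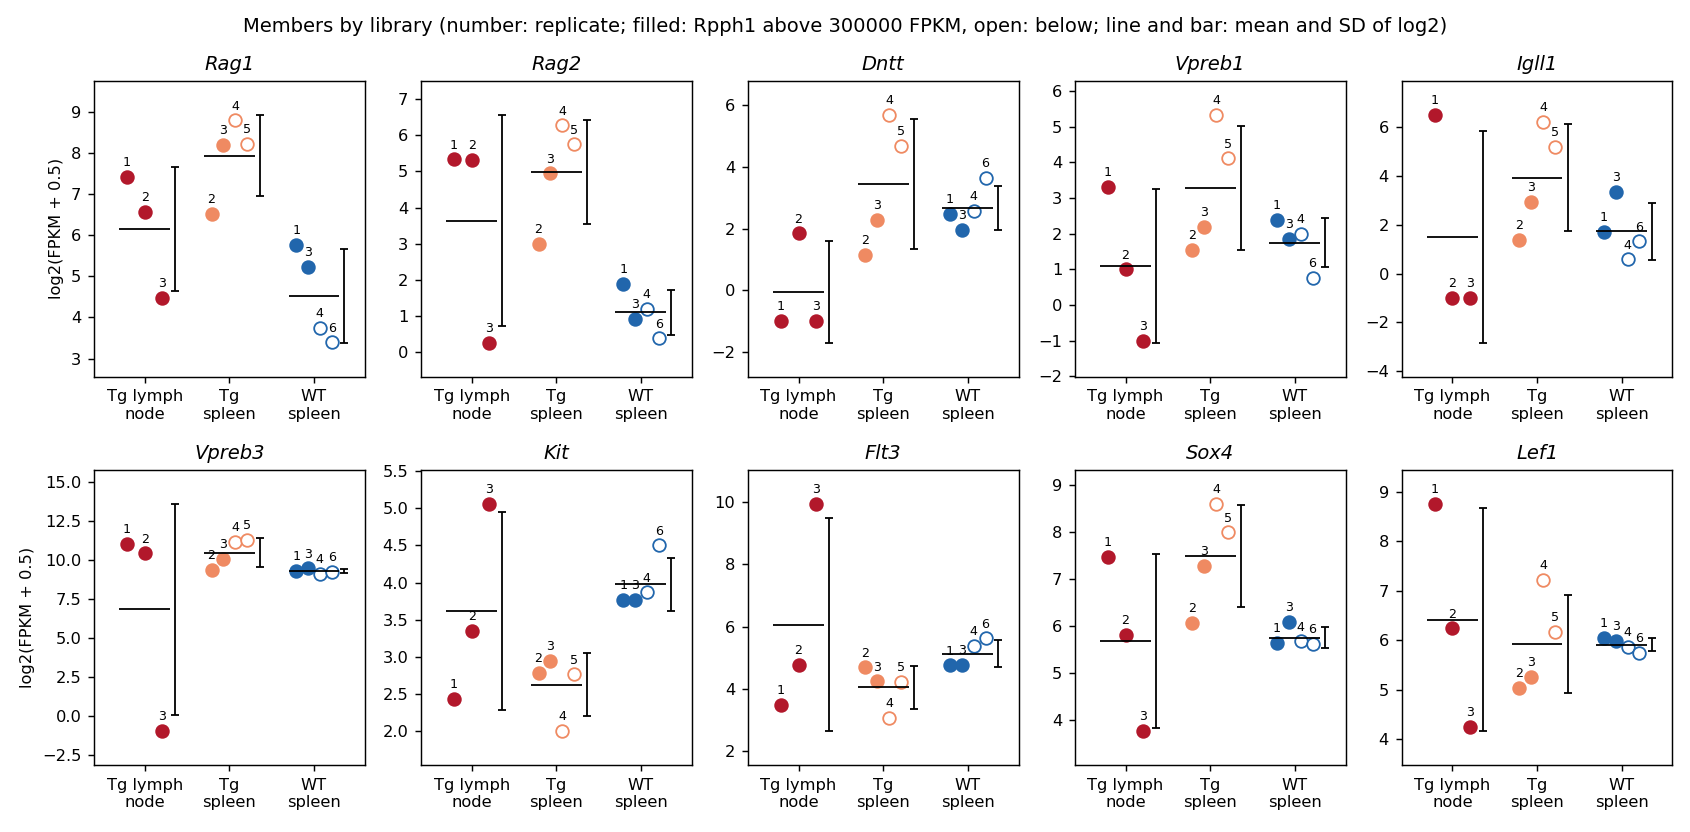
Level of each of the 10 genes in each of the 11 libraries, as log2(FPKM + 0.5) on the vertical axes, by group on the horizontal axes. Numbers are replicates, filled points have Rpph1 above 300000 FPKM and open points below it, and lines and bars give the mean and SD; the open Tg_spleen points, replicates 4 and 5, are the highest of that group in all of the genes but Kit and Flt3.

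How firmly each call stood was examined by leaving out each of the 8 libraries in turn. Rag1, Rag2 and Kit were called in 8 of 8 such fits, with adjusted p of at most 0.0247, 0.0172 and 0.0341. Sox4 was called in 5 of 8, and had adjusted p of 0.0516 without WT_spleen replicate 1, 0.0552 without WT_spleen replicate 4 and 0.0603 without Tg_spleen replicate 5. Vpreb3 and Flt3 were called in 1 of 8, without Tg_spleen replicate 2, and had adjusted p of 0.0518 to 0.111 and 0.0643 to 0.12 in the other fits. Without that library Vpreb1 and Igll1 were called as well, with log2 differences of 2.13 (adjusted p = 0.0354) and 3.05 (adjusted p = 0.0221).

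The 2 classes of libraries by Rpph1 gave different pictures. In the class below 300000 FPKM, Tg_spleen replicates 4 and 5 against WT_spleen replicates 4 and 6, 7 of the 10 genes were called higher and 2 lower, where 13.7% of all genes were called higher and 9.63% lower. The 7 were Rag1 (log2 difference 4.94), Rag2 (5.22), Igll1 (4.76), Vpreb1 (3.34), Sox4 (2.64), Dntt (2.07) and Vpreb3 (2.04), and the 2 lower were Flt3 (-1.86) and Kit (-1.80). In WT_spleen replicates 4 and 6, Igll1 had about 1 and 2 reads, Vpreb1 3 and 1, and Rag2 7 and 3. The size of these 3 differences therefore depends on the 0.5 FPKM added. In the class above 300000 FPKM, Tg_spleen replicates 2 and 3 against WT_spleen replicates 1 and 3, 0 were called higher by limma and 1 lower, and 3 had an unadjusted p under 0.05. There 6.39% of all genes were called higher and 3.65% lower.

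Within the upper class Rag2 differed by 2.57 ± 0.70 on the log2 scale (adjusted p = 0.0651) and Rag1 by 1.86 ± 0.69 (adjusted p = 0.206). Lef1 was the gene called lower there, at 32.4 and 38 FPKM in Tg_spleen and 65.9 and 63.2 FPKM in WT_spleen (log2 difference -0.87 ± 0.20, adjusted p = 0.0356). Dntt, Vpreb1 and Igll1 had differences of -0.51, -0.24 and -0.37 in that class, below 0 and not called. The test of the difference between classes called none of the 10 genes, with adjusted p of 0.257 to 0.465, and 0.0143% of all genes. The largest such differences were 5.13 ± 1.01 for Igll1 and 3.58 ± 0.83 for Vpreb1, with unadjusted p of 0.000813 and 0.00216. With the class as a term in the fit, the same 6 genes were called as without it. Myc itself differed by 3.24 in the lower and 2.19 in the upper class. What lies behind the classes, which no label names, was not tested.

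**Figure D3:**
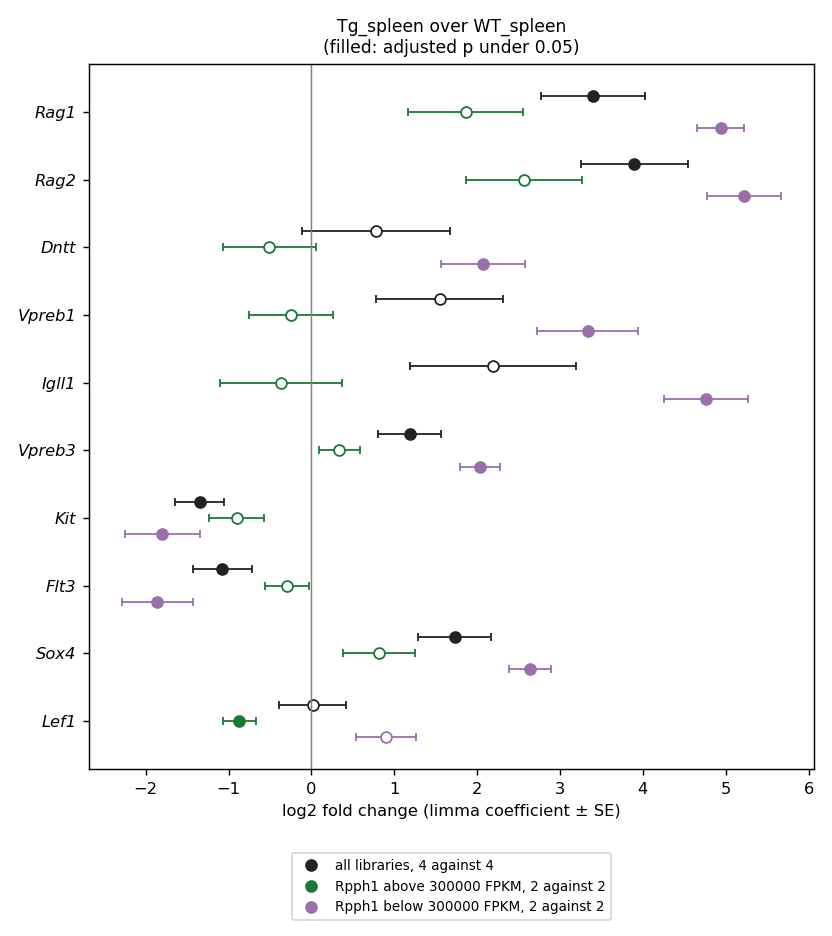
Log2 fold change of Tg_spleen over WT_spleen with its SE (horizontal axis) for the 10 genes, in all 8 libraries and in each Rpph1 class; filled points have an adjusted p under 0.05. Filled points on the right number 4 in all libraries, 0 in the class above 300000 FPKM and 7 in the class below it.

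The 3 tumours differed widely from each other in these genes. Rag1 was at 171.3, 93.7 and 21.8 FPKM in Tg_lymphnode replicates 1, 2 and 3, and Rag2 at 39.8, 39.3 and 0.7 FPKM. Replicates 1 and 2 were above the wild-type highs of 53.5 FPKM of Rag1 and 3.2 FPKM of Rag2, and replicate 3 was not. Against WT_spleen the log2 differences were 1.62 ± 0.81 for Rag1 (adjusted p = 0.152) and 2.54 ± 1.20 for Rag2 (adjusted p = 0.132). Without replicate 3 they were 2.46 ± 0.71 (adjusted p = 0.0300) and 4.23 ± 0.48 (adjusted p = 0.00028). Rag1 exceeded Rag2 by 4.3 and 2.38 times in replicates 1 and 2.

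Dntt was listed at 0, 3.1 and 0 FPKM in the tumours, below all 4 wild-type libraries (3.4 to 12.1 FPKM), and was the single gene of the 10 called against WT_spleen with all tumours. Its log2 difference was -2.72 ± 0.78 (adjusted p = 0.0263) on the scale with 0.5 FPKM added. Dntt passed the filter on low values through WT_spleen, the group where it was higher, so the call is weak support for a difference. Tg_lymphnode replicate 2 and WT_spleen replicate 3 each held about 6 reads, so the gap between the groups is within counting error. The call was kept in 2 of 7 fits that left out 1 library, without WT_spleen replicate 3 (adjusted p = 0.0392) or Tg_lymphnode replicate 2 (adjusted p = 0.00414). Adjusted p was 0.0562, 0.0589 and 0.0689 without WT_spleen replicates 1, 4 and 6, 0.0779 without Tg_lymphnode replicate 1 and 0.0509 without Tg_lymphnode replicate 3. Across all genes 20.3% were called higher and 17.7% lower in this comparison, so that 1 call in 10 genes is below that share. Without replicate 3, 3 of the 10 were higher and 0 lower, beside 22.9% and 21.1% of all genes.

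Surrogate light chain genes took a different course in each tumour. Igll1 reached 90.1 FPKM in replicate 1, about 63 reads, and was listed at 0 in the other 2. Vpreb1 came to 9.4 FPKM in replicate 1 and 1.5 FPKM in replicate 2, about 6 reads and 1, and was listed at 0 in replicate 3. Replicate 1 was thus the tumour with both partners of the surrogate light chain. Neither was called against WT_spleen: Igll1 differed by -0.24 ± 1.79 with all tumours and 1.01 ± 2.02 without replicate 3 (adjusted p = 0.927 and 0.716), and Vpreb1 by -0.65 ± 0.94 and 0.41 ± 0.72 (adjusted p = 0.620 and 0.675). With 0 to 7 reads in most libraries, the size of these differences depends on the 0.5 FPKM added.

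Vpreb3 reached 2103.1 FPKM in replicate 1 and 1363.7 FPKM in replicate 2, and was listed at 0 in replicate 3. The mean of replicates 1 and 2 was at least 413-fold higher than the 4.19 FPKM that 3 reads would give in replicate 3. Without replicate 3, Vpreb3 was higher than in WT_spleen by 1.45 ± 0.20 (adjusted p = 0.000786), and with it the difference was -2.46 ± 2.61 (adjusted p = 0.490).

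Flt3 was at 10.6, 26.7 and 979.5 FPKM in the 3 tumours and Kit at 4.9, 9.7 and 32.8 FPKM. Replicate 3 was thus the highest of all 11 libraries in both receptors, 52.5-fold above the mean of the other tumours in Flt3 and 4.49-fold in Kit. Flt3 differed from WT_spleen by 0.93 ± 1.34 with replicate 3 and -1.01 ± 0.42 without it (adjusted p = 0.616 and 0.0814). Kit differed by -0.36 ± 0.59 with it and -1.08 ± 0.39 without it (adjusted p = 0.660 and 0.0534). The 8 plasmacytoid dendritic cell genes summed to 1190, 3220 and 19400 FPKM in replicates 1, 2 and 3, and the 6 conventional dendritic cell genes to 68.7, 106 and 826 FPKM, so both sums were highest in replicate 3, as Flt3 and Kit were. The 7 mast cell and basophil genes summed to 10.7, 47.1 and 18 FPKM, highest in replicate 2, and Cpa3 was at 4.2, 13 and 0.8 FPKM. Their part in the 2 receptors was not tested.

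Sox4 was at 175.2, 55.7 and 13.1 FPKM and Lef1 at 431.4, 75.1 and 18.6 FPKM in the tumours. Replicate 1 had the highest Lef1 of all 11 libraries and replicate 3 the lowest Lef1 and Sox4. Neither was called against WT_spleen: Sox4 differed by -0.07 ± 0.74 and Lef1 by 0.50 ± 0.88 (adjusted p = 0.946 and 0.683), and without replicate 3 by 0.88 ± 0.41 and 1.59 ± 0.63 (adjusted p = 0.115 and 0.0839).

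Set against young transgenic spleen, tumours had 0 of the 10 genes called by limma in either direction, with all tumours or without replicate 3, where 2 and 0 had an unadjusted p under 0.05. Of all genes, 3.56% were called higher and 2.39% lower with all tumours, and 3.37% and 2.76% without replicate 3. The 2 genes were Dntt, with a log2 difference of -3.50 ± 1.19 (adjusted p = 0.127), and Rag1, with -1.78 ± 0.74 (adjusted p = 0.194). In replicates 1 and 2 alone, Rag1 differed from Tg_spleen by -0.94 ± 0.58 and Rag2 by 0.33 ± 0.80, with an SE in Rag2 larger than the difference. This comparison shares its Tg_spleen libraries with the spleen comparison, and the tumour and spleen comparisons share WT_spleen.

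Tumours were not purified, and genes of some other cells were higher in them and of others lower. Of all genes tested against WT_spleen with all tumours, 20.3% were called higher and 17.7% lower. Of 7 stromal genes 6 were higher and 1 lower than in WT_spleen, Dcn at 101.7, 103.7 and 122.9 FPKM against 0 to 0.6 FPKM. Of 6 exocrine gland genes tested 5 were higher, with 7-gene sums of 2270 to 10400 FPKM in Tg_lymphnode and 5.2 to 45.7 FPKM in WT_spleen. With all 3 tumours, Dcn, Pdgfrb, Lum, Psp, Smr3a and Cela2a passed the filter only through the tumours, where they were high. Their calls are therefore weak support. T cell genes, which go with Lef1 in that lineage, summed to 598 to 17800 FPKM in Tg_lymphnode and 376 to 627 FPKM in WT_spleen, and 4 of 10 were higher. The top sum is that of replicate 3, and replicates 1 and 2 summed to 598 and 1520 FPKM. Most of the sum of replicate 3 came from Cd4 (9468.2 FPKM) and Cd8b1 (7614.6 FPKM). The other listed T cell genes were highest in replicate 2, except Thy1, so the top sum is no measure of T cells. Without replicate 3 the counts were 6 higher and 1 lower for stroma, 5 higher for exocrine gland and 5 higher for T cells. They stand beside 22.9% of all genes called higher and 21.1% lower in that fit. Dcn, Lum, Psp and Smr3a again passed the filter only through the tumours. NK cell genes had 0 higher and 5 lower of 6, with sums of 127 to 212 FPKM in Tg_lymphnode and 422 to 760 FPKM in WT_spleen, and conventional dendritic cell genes 0 higher and 2 lower of 6. Within the tumours Cd3e was highest in replicate 2, at 143.1 FPKM, and Lef1 in replicate 1, where Cd3e was at 38.6 FPKM. The part of these cells in the tumour values was not tested.

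**Figure D4:**
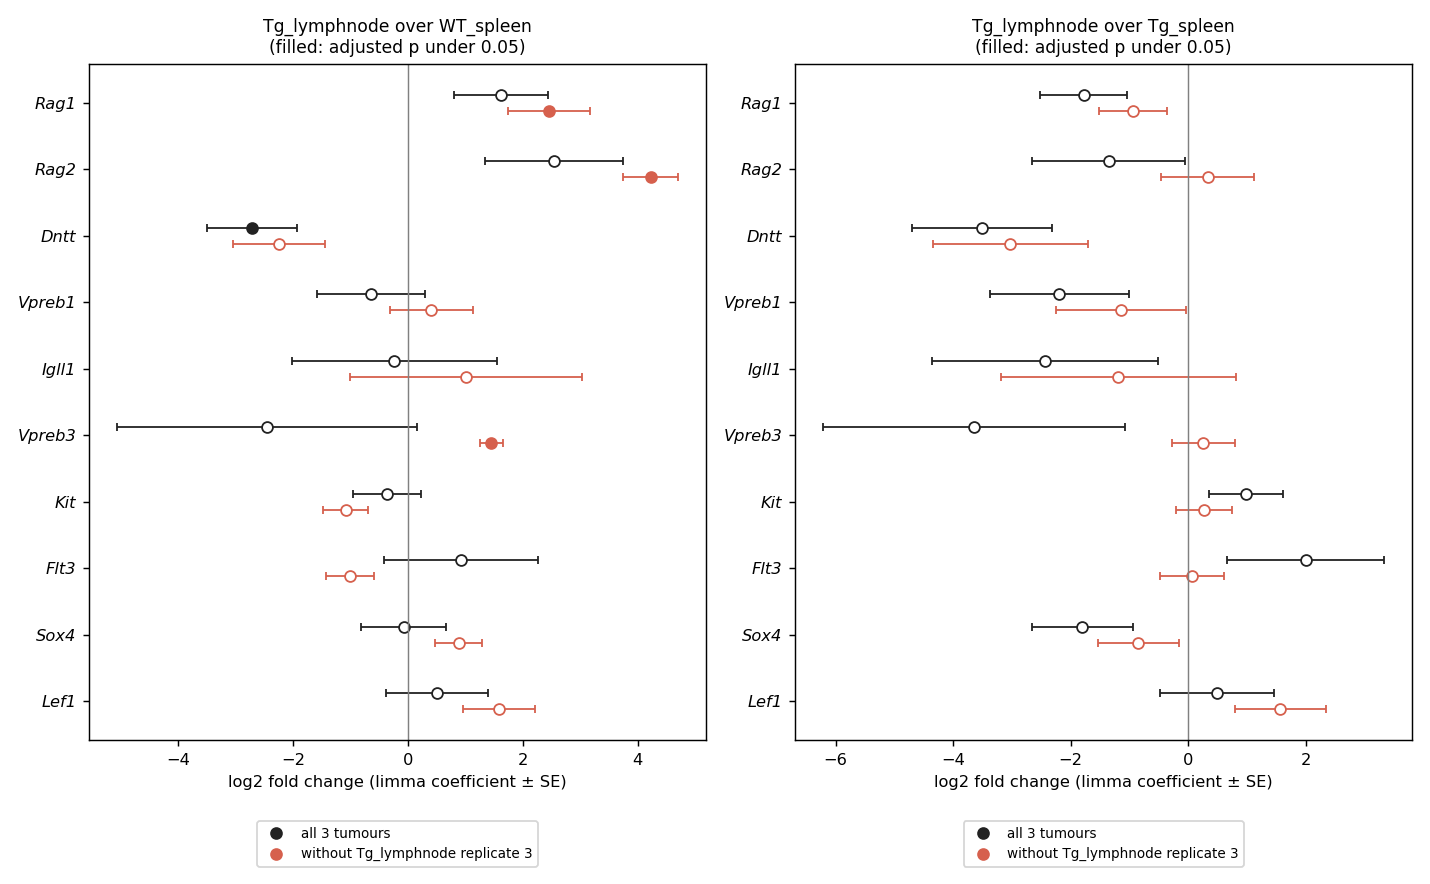
Log2 fold change with SE (horizontal axes) of Tg_lymphnode over WT_spleen and over Tg_spleen for the 10 genes, with all 3 tumours and without replicate 3; filled points have an adjusted p under 0.05. Without replicate 3, Rag1, Rag2 and Vpreb3 pass against WT_spleen, and none of the 10 passes against Tg_spleen.

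Recombination also needs proteins that close the breaks. Of 13 genes that join ends or assist the recombinase, 4 were higher and 0 lower in Tg_spleen than in WT_spleen, with a median log2 difference of 0.13, where 15.7% of all genes were higher and 12.2% lower. The counts were 4 higher and 0 lower in the Rpph1 class below 300000 FPKM, and 2 and 0 in the class above it. Of all genes, 13.7% were higher and 9.63% lower in the class below, and 6.39% and 3.65% in the class above. Xrcc5 and Xrcc6, the Ku80 and Ku70 subunits that hold broken ends, averaged 405 ± 27.7 and 652 ± 257 FPKM in Tg_spleen, against 256 ± 10.1 and 250 ± 26.1 FPKM in WT_spleen (SD, n = 4 each; adjusted p = 0.00388 and 0.00862). Hmgb2, a DNA bending protein that aids RAG, averaged 483 ± 282 FPKM in Tg_spleen and 114 ± 46.9 FPKM in WT_spleen (SD, n = 4 each; adjusted p = 0.00801). Hmgb1 was the remaining gene called. Hmgb1 and Hmgb2 have many near copies in the genome, so their reads may be divided among them.

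In tumours 3 of the 13 were higher and 2 lower than in WT_spleen, and 5 and 1 without replicate 3, beside 20.3% and 17.7% of all genes, or 22.9% and 21.1% without replicate 3. Xrcc6 averaged 482 ± 127 FPKM in Tg_lymphnode (SD, n = 3) and 250 ± 26.1 FPKM in WT_spleen (SD, n = 4; adjusted p = 0.00725). Hmgb1 averaged 394 ± 81.4 FPKM in Tg_lymphnode and 180 ± 44.8 FPKM in WT_spleen (adjusted p = 0.00781). Xrcc4, the partner of the ligase, averaged 82.8 ± 7.64 FPKM in Tg_lymphnode and 159 ± 21.6 FPKM in WT_spleen (adjusted p = 0.0033). Against Tg_spleen 0 of the 13 were called by limma, and 0 had an unadjusted p under 0.05.

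Among 12 other genes of early B cell stages, 11 were tested in the spleen and 2 were higher and 0 lower in Tg_spleen, with a median log2 difference of 0.64, a count near the 15.7% of all genes. The Rpph1 classes differed: 7 of 12 were higher in the class below 300000 FPKM, with a median of 1.31, and 0 of 11 were called by limma in the class above it, with a median of 0.12 and 2 at an unadjusted p under 0.05. Of all genes, 13.7% were called higher in the class below and 6.39% in the class above. Enpep, the BP-1 antigen of late pro-B and pre-B cells, stood at 1.5, 5.9, 14.3 and 7.4 FPKM in Tg_spleen, against 0.9, 0.6, 0.2 and 0 FPKM in WT_spleen (adjusted p = 0.0101). All its WT_spleen values were below the filter of 1 FPKM, so Enpep entered the test only through Tg_spleen, where it was high. The call is therefore weak support, and the size of the difference depends on the 0.5 FPKM added. Myb, a factor of early blood progenitors, averaged 552 ± 318 FPKM in Tg_spleen and 166 ± 15.4 FPKM in WT_spleen (adjusted p = 0.0223). In the tumours 4 of 11 were higher and 0 lower than in WT_spleen, beside 20.3% and 17.7% of all genes. Without replicate 3, 7 of 12 were higher and 0 lower, beside 22.9% and 21.1% of all genes. Il7r, the receptor for interleukin 7, stood at 426.7, 254 and 70 FPKM in Tg_lymphnode, against 44, 21.6, 19.5 and 48.3 FPKM in WT_spleen (adjusted p = 0.0124). Cd34, a surface protein of progenitors and of blood vessels, was higher in Tg_lymphnode than in both spleens, at 13.8, 12.7 and 6.3 FPKM against 0.8 to 3.4 FPKM in Tg_spleen (adjusted p = 0.0388) and 0 to 1.4 FPKM in WT_spleen (adjusted p = 0.00387).

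Of 11 factors that direct early B cells, 0 were higher and 3 lower in Tg_spleen than in WT_spleen, beside 15.7% and 12.2% of all genes. In the Rpph1 class below 300000 FPKM 2 were higher and 1 lower, beside 13.7% and 9.63% of all genes. In the class above it the counts were 0 and 1, beside 6.39% and 3.65%. Foxo1, an activator of the Rag genes, averaged 236 ± 73.7 FPKM in Tg_spleen and 467 ± 78.3 FPKM in WT_spleen (adjusted p = 0.014). Pax5, which holds cells in the B lineage, averaged 1870 ± 248 FPKM in Tg_spleen and 2910 ± 506 FPKM in WT_spleen (SD, n = 4 each; adjusted p = 0.0342). Irf8, a factor that B cells share with dendritic cells, averaged 991 ± 239 FPKM in Tg_spleen and 1540 ± 78.9 FPKM in WT_spleen (adjusted p = 0.0289). In the tumours 0 were higher and 4 lower than in WT_spleen, beside 20.3% and 17.7% of all genes. Without replicate 3, 1 was higher and 8 lower, beside 22.9% and 21.1%. General B cell genes fell as well in these unpurified tumours. Of the 6 such genes, 3 were lower with all tumours and 5 without replicate 3. Their median log2 differences were -2.47 and -1.19, against -1.5 and -0.97 for the 11 factors. Blnk, the adaptor of the pre-B cell receptor, was lower in Tg_lymphnode (600.3, 373.5 and 351.6 FPKM) than in Tg_spleen (936.5 to 1217.9 FPKM, adjusted p = 0.0182) and WT_spleen (1062.7 to 1346.8 FPKM, adjusted p = 0.00153). Ikzf3 and Ikzf1, zinc finger factors of the pre-B transition, differed from WT_spleen by -1.82 and -0.71 on the log2 scale (adjusted p = 0.00238 and 0.0148). The 9 genes of these 3 lists with the smallest adjusted p in tumours against WT_spleen (3 of each list), namely Xrcc4, Xrcc6, Hmgb1, Cd34, Il7r, Myb, Blnk, Ikzf3 and Ikzf1, kept their calls without replicate 3, with adjusted p of 0.000241 to 0.0183, and Cd34 and Blnk kept theirs against Tg_spleen (0.0309 and 0.0376). These genes were picked by the same comparison and libraries, so the kept calls are no separate support. Trp53bp1, called lower with all tumours (adjusted p = 0.0395 by limma), was not called without replicate 3.

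The order of the 10 genes by level, which FPKM allows since it is per length, differed between groups. Vpreb3 led in all 3 groups, with no overlap with the next gene in Tg_spleen and WT_spleen. In Tg_spleen it was followed by Rag1, Sox4, Lef1, Rag2, Igll1, Dntt, Flt3, Vpreb1 and Kit, whose neighbours all overlapped. In WT_spleen it was followed by Lef1, Sox4, Flt3, Rag1, Kit, Dntt, Igll1, Vpreb1 and Rag2. There the neighbours Sox4 and Flt3, and Kit and Dntt, did not overlap, and the others did. In Tg_lymphnode, with all 3 tumours, all neighbours overlapped.

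Genes with profiles most like each of the 10 were sought over the 11 libraries, by the root mean square difference of centred log2 values among 11751 genes. The libraries share their groups and classes, so likeness is a description. Sox4 was closest to Lgr5 (0.33), a receptor for R-spondins, and then to Csrp2 (0.39) and Capsl (0.48). Vpreb1 was closest to Capsl (0.55), Sox4 (0.61) and Lgr5 (0.69), so Sox4 and Vpreb1 shared 2 of their 3 nearest genes. Lef1 was closest to St3gal5 (0.36), Cd93 (0.52) and Col27a1 (0.53). Cd93, a surface marker of immature B cells, reached 1198.3 FPKM in Tg_lymphnode replicate 1, where Lef1 was at 431.4 FPKM.

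Flt3 was closest to Ccr9 (0.40), Cd7 (0.42) and Runx2 (0.42), all highest in Tg_lymphnode replicate 3, at 749.5, 2457.7 and 460.8 FPKM. Kit was closest to Gramd1b (0.31), Myo1f (0.33) and Adam23 (0.34). Rag2 was closest to Rtkn2 (0.62), and Rag1 to Pcdhgc4 (0.72), which was at 6, 12.2, 18.8 and 11.9 FPKM in Tg_spleen and 3.1, 1.7, 1.8 and 0.7 FPKM in WT_spleen. Dntt (Fgf13, 0.87), Igll1 (Tnfrsf19, 1.13) and Vpreb3 (Alpl, 1.35) had more distant neighbours. Rag1 and Rag2 were not among each other's 3 nearest genes.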

How the data were processed

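RNA sequencing covered 11 libraries of B cells and tumours and 18 of fibroblasts, made from ribosome-depleted total RNA per the labels' protocols. The authors deposited 1 FPKM value per gene and library, per the file headers. Build mm9 and the tools TopHat2 (2.0.8), TopHat, SAMtools and HTSeq (0.5.3p9) are named in the submitters' processing notes; the annotation and the rule behind the FPKM scale are not given in the sources used here. Reads per gene were estimated from the spacing of values of at most 3.5 reads, with GENCODE M21 lengths of 300 to 1500 bases; 70.6 to 76.1% of these lay within 0.15 of a whole read, so reads are approximate and no count test was run.

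Values were taken as log2(FPKM + 0.5). A gene entered a fit when the number of libraries with 1 FPKM or more reached the size of the smaller group. Each comparison was fitted on its own 2 groups with limma 3.58.1 in R 4.3.3 (lmFit, eBayes with trend and robust), two-sided, with Benjamini-Hochberg adjustment over all genes tested and calls at an adjusted p under 0.05. Log2 differences are the fitted coefficients, which understate changes of low genes. The fit was also run on simulated data with independent noise, without the Rpph1 classes or a tumour apart from the others. That run does not bear on how these move the calls. Python 3.11.15, pandas 2.3.3, NumPy 2.4.6 and Matplotlib 3.10.9 made the tables and plots.

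The 10 genes, the lists and the tests were chosen with earlier results of these data known. Named besides the 10 genes and Myc were, per list and comparison, up to 3 genes with the smallest adjusted p, cell type markers beside a member, and the 3 genes most like each member (mean of at least 5 FPKM in 1 group). Ebf1, Vpreb2 and Hmgb1 in the spleen comparison were chosen after their values were seen. Promoter windows are RefSeq sequences on GRCm38.p6, matched by symbol for all 10 genes (14 starts). Alternatives were a pseudocount of 0.1 or 1 FPKM, no filter or one of 5 FPKM, median ratio scaling, moderation without trend and robust, all 3 groups in 1 fit, a replicate block, each library left out, and the Rpph1 classes. Rpph1 as a term, the test between classes and the Rpph1 fits with tumours were added after the data were seen.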

Additional observations from a re-analysis of the deposited data

Results flagged for a closer look

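Among the 10 genes, 2 of 20 tests for a library far from the others of its group of 4 found one, where chance gives about 1 in 20. Kit in WT_spleen had 22.1 FPKM in replicate 6, against 13.1 to 14.1 FPKM in the others, a gap of 0.889 of the range. Sox4 in WT_spleen had 67.1 FPKM in replicate 3, against 48.9 to 50.5 FPKM in the others, a gap of 0.912 of the range.

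In the fibroblasts, which the comparisons above do not use, Flt3 averaged 0.555 FPKM after 16 h of OHT, and the lowest of 4 libraries there, at 0.384 FPKM, was above the highest at 0 h (0.373 FPKM). At 4 h Flt3 stood at 0.372 to 1.048 FPKM, with a mean of 0.649 FPKM, and overlapped 0 h. At 8 h it stood at 0.28 to 0.369 FPKM, below that highest value. The difference was not tested, and the share of all fibroblast genes that lie apart in this way was not counted.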

How the results depend on the processing

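Between Tg_spleen and WT_spleen, 4 genes higher and 2 lower became 3 higher and 1 lower with no filter (3472 genes in all) and without trend or robust (3430 in all). In these 2 limma fits Vpreb3 had adjusted p of 0.0533 and 0.0648, and Flt3 0.0616 and 0.061. With all 3 groups in 1 fit, 2 were higher and 0 lower (2376 in all). Above 300000 FPKM of Rpph1, 0 were higher and 1 lower (1426 in all), and below it 7 and 2 (3334 in all). Above it Dntt, Vpreb1, Igll1 and Lef1 turned to -0.51, -0.24, -0.37 and -0.87. Leaving out 1 library gave 2 to 6 higher, 1 to 2 lower and 2151 to 5084 genes in all (2321, 2151 and 2501 without WT_spleen replicates 1 and 4 and Tg_spleen replicate 5), and Lef1 ran from -0.42 to 0.31. The cause was not tested.

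Between Tg_lymphnode and WT_spleen, 1 gene lower became 0 with all 3 groups in 1 fit (5953 in all) and 0 above 300000 FPKM of Rpph1 (2188 in all). There, without Tg_lymphnode replicate 3, 3 were higher and 0 lower (4138 in all). Vpreb1, Vpreb3, Igll1, Flt3 and Sox4 turned to 0.04, 1.35, 0.22, -0.64 and 0.78. Igll1 was 0.19 with a pseudocount of 1 FPKM. Leaving out 1 library gave 0 to 3 higher, 0 to 1 lower and 4246 to 6655 genes in all. Values then ran from -1.75 to 0.41 for Vpreb1, -4.57 to 1.45 for Vpreb3, -2.74 to 1.01 for Igll1, -1.08 to 0.23 for Kit, -1.01 to 2.22 for Flt3, -0.96 to 0.88 for Sox4 and -0.67 to 1.59 for Lef1.

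Between Tg_lymphnode and Tg_spleen, 0 genes lower became 1 (Dntt) with all 3 groups in 1 fit (2158 in all), and 252 genes in all were called above 300000 FPKM of Rpph1. There, without replicate 3, Rag2, Vpreb1, Vpreb3, Igll1 and Flt3 turned to 1.35, 0.29, 1.01, 0.59 and -0.35. Leaving out 1 library gave 0 higher, 0 lower and 297 to 920 genes in all (396, 297 and 400 without Tg_spleen replicates 2, 3 and 5, and 517 without Tg_lymphnode replicate 2). Rag2 ran from -2.20 to 0.33, Vpreb3 from -5.76 to 0.26 and Lef1 from -0.68 to 1.57.

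Each pair of groups shares only 2 replicate numbers, and same-numbered libraries deviated together with correlations of -0.02 to 0.14, so the numbers were not taken as pairing. With a replicate block, 3 genes were higher (Rag1, Rag2 and Sox4, adjusted p of 0.0343, 0.0343 and 0.0458) and 0 lower in Tg_spleen than in WT_spleen (840 in all); Vpreb3, Kit and Flt3 had adjusted p of 0.0873, 0.134 and 0.126. In Tg_lymphnode against WT_spleen the block gave 0 lower and 0 genes in all, with Igll1 at 0.22, and against Tg_spleen 0 in all. With the block, only libraries whose replicate number occurs in both groups set the difference, and every other library is absorbed by its own term. Calls lost with the block therefore cannot be told apart from the effect of using fewer libraries. The block fits do not show how firm the calls are.

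Vpreb1 had about 1 to 3 reads in a WT_spleen library, Igll1 1 to 7, Rag2 3 to 9 and Dntt 6 to 28. Differences in these genes of less than that counting error were not detectable at this depth.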

Other observations

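The 10 genes were also read in 3T9 fibroblasts with MycER, in which Myc is switched on by OHT (hydroxytamoxifen), on an FPKM scale of their own. Sox4 was the single gene of the 10 at a high level there. It stood at 40.6 to 52.7 FPKM at 0 h, 43.9 to 63.7 FPKM at 4 h, 40.3 to 53.8 FPKM at 8 h and 35.6 to 54.1 FPKM at 16 h, with overlap throughout (n = 4 each). Lef1 stood at 2.46 to 4.25 FPKM at 0 h, 1.81 to 2.14 FPKM at 4 h, 1.10 to 3.40 FPKM at 8 h and 0.762 to 2.57 FPKM at 16 h. The 4 libraries at 4 h were all below those at 0 h, with no test made and no count of such genes among all genes. In nascent RNA, with 1 library per time, Sox4 was at 15.5 FPKM at 0 h and 19.4 FPKM at 4 h, and Lef1 at 7.64 and 5.06 FPKM. Flt3 reached 1.05 FPKM in 1 library at 4 h, and the other 7 genes stayed at or below 0.703 FPKM in total RNA.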
